A study of Homo sapiens with 6 samples.

Results

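The golgins are long coiled-coil proteins that stand out from Golgi membranes and catch transport vesicles, and the GRASP proteins link Golgi cisternae into stacks and into the connected ribbon next to the centrosome. The 10 genes examined were GOLGA1, GOLGA2, GOLGA3, GOLGA4, GOLGA5, GOLGB1, GORASP1, GORASP2, TRIP11 and BLZF1, taken by gene name from a table of 58735 genes. All 10 were found and all 10 passed the filter on low counts. On the cis side of the stack, the golgin GM130 (GOLGA2) is held by GRASP65 (GORASP1); on the medial side, golgin-45 (BLZF1) is held by GRASP55 (GORASP2). GMAP-210 (TRIP11) tethers vesicles at the cis face, golgin-97 (GOLGA1) and golgin-245 (GOLGA4) are recruited to the trans face by a small GTPase through their GRIP domains, and giantin (GOLGB1) and golgin-84 (GOLGA5) are anchored in the membrane by a transmembrane segment.

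Messenger RNA was counted in 6 RNA-seq libraries from RPE-1 cells, an immortalised human retinal pigment epithelial line. All cells carried GFP-tagged CETN2, which marks centrioles, and PLK4, the kinase that starts centriole duplication, under a doxycycline-inducible promoter; PLK4 was induced with 1 µg/mL doxycycline in both groups. The siSON group (3 libraries) received an siRNA against SON, a nuclear speckle protein needed for efficient splicing of many introns, and the siControl group (3 libraries) a scramble siRNA. The comparison asked how mRNA levels differ without SON while PLK4 is induced, in a study of intracellular trafficking and centriole assembly. The labels do not say whether replicates were separate cultures, so p-values measure the spread between these libraries, which may be technical.

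Libraries held 54572365 to 69764836 counts, and 3 counts correspond to 0.0430 to 0.0550 CPM (counts relative to the size of the library) before scaling, a limit that covers counting error only. No replicate pair agreed within sampling noise (chi-square per degree of freedom 7.16 to 26.1). SON had 295, 313 and 284 CPM in the control libraries and 67.96, 69.96 and 65.00 CPM after knockdown, so 22.8% of its control level remained. The epithelial and mesenchymal markers KRT8, KRT18, VIM and CDH2 were at 208 CPM or more in every library, and MITF and OTX2, regulators of pigment epithelium, were at 19.7 CPM or more. The differentiated pigment epithelium genes RPE65 and RLBP1 had at most 18 and 7 counts in any library, and TYR had 0, whereas BEST1, another gene of that mature cell type, had 7.71 to 14.8 CPM. Of the markers of other cell types, CDH5, CDH1 and EPCAM had at most 12 counts in a library and MYOD1 had 0, PTPRC and PECAM1 stayed at or under 1.98 CPM, and TUBB3 reached 10.2 CPM.

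The coding starts of the 2 GRASP genes are shown because these paralogs moved in opposite directions, and a comparison of them needs reads that can be told apart. The sequences are the first 150 coding bases of each gene's longest coding transcript in GENCODE release 29 (GRCh38), with the start codon in capitals. That of GORASP1 lies in exons 1 to 3, chr3:39102876-39107541 on the minus strand, and that of GORASP2 in exons 1 to 3, chr2:170929341-170949544 on the plus strand.
GORASP1: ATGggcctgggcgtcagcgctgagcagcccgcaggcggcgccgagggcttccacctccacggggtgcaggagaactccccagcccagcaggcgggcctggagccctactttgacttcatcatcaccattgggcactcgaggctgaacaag
GORASP2: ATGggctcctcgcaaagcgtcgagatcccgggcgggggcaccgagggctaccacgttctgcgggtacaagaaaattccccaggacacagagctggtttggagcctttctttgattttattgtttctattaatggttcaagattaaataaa
Of these 150 bases, 91 were identical in a global alignment, and the longest stretch shared without a mismatch was 9 bases. Over the whole coding sequences (1320 and 1356 bases without the stop codon), 60.4% of 1279 aligned bases were identical. The longest stretch shared by the whole transcripts was 17 bases.

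SON knockdown was accompanied by opposite shifts within the stacking machinery: GORASP1 and its partner GOLGA2 were lower, and GORASP2 and its partner BLZF1 were higher. These shifts were not extreme among all genes tested. By absolute log2 fold change, GORASP1 stood at percentile 74.8, GORASP2 at 67.2, GOLGA2 at 48.0 and BLZF1 at 46.7. Whether partners moved together more than other genes was not tested. Of the 10 genes, 8 had an adjusted p under 0.05 (called changed below), 6 higher and 2 lower in siSON, in edgeR's quasi-likelihood test with Benjamini-Hochberg adjustment over 16591 genes. That share is near the background: 71.7% of all genes tested were called, 35.2% higher and 36.5% lower. The groups did not overlap for the same number, 8 of 10, against 75.1% of all genes. The median log2 fold change of the 10 was 0.29, beside -0.03 for all genes tested, and the median absolute value was 0.46, beside 0.63. Scaling by library size alone moved the median gene by -0.20 on the log2 scale, and under it 6 of the 10 were called, 3 in each direction, and their median was 0.10 beside -0.22 for all genes. Cyclic loess normalization, which scales by level, moved the median gene by 0.14; 6 of the 10 were called, 4 higher and 2 lower, and their median was -0.006 beside 0.04 for all genes.

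**Figure D1:**
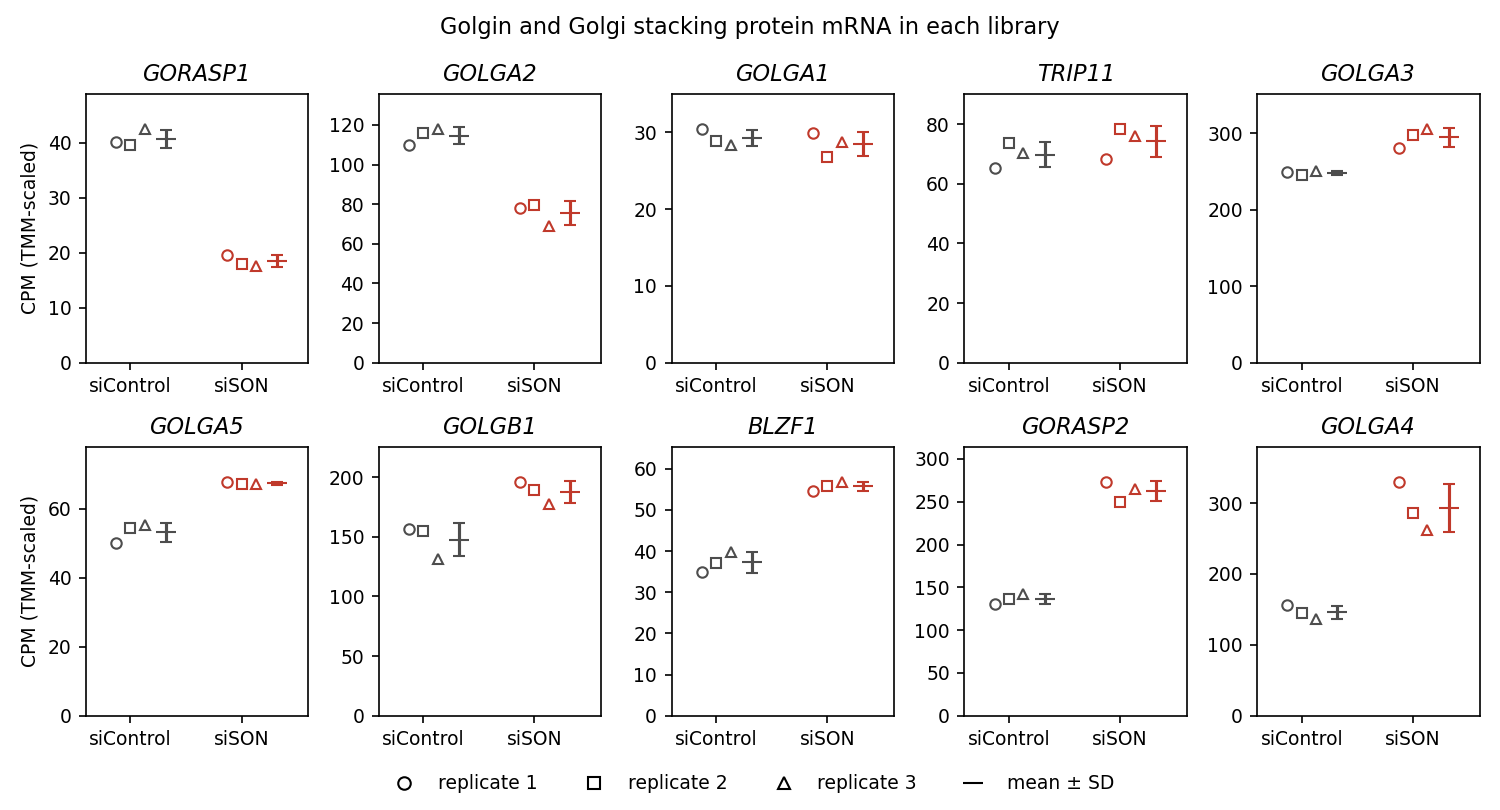
Level of each of the 10 mRNAs in CPM (vertical axes, each from 0) in the 3 siControl and 3 siSON libraries, ordered by fold change; symbols are replicates and bars the mean ± SD. GORASP1 and GOLGA2 lie lower in every siSON library than in any siControl library, 6 genes lie higher, and GOLGA1 and TRIP11 overlap.

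GRASP65, encoded by GORASP1 (ENSG00000114745; GRCh38 chromosome 3, 39096659 to 39108363, minus strand), joins cis cisternae and is a target of mitotic kinases when the Golgi comes apart for division. Replicates 1 to 3 had 40.1, 39.6 and 42.5 CPM in siControl, against 19.7, 18.0 and 17.6 CPM in siSON. Every siSON library lay under every control library. The level fell to 45.3% of control, a log2 fold change of -1.14 (SE 0.07, 95% interval -1.303 to -0.98, edgeR adjusted p 1.1e-07). The gene shares 161 exonic bases with TTC21A and 13 with WDR48, both on the other strand; TTC21A had 61 to 254 counts in a library, and GORASP1 had 895 to 3178.

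GRASP55, encoded by GORASP2 (ENSG00000115806; chromosome 2, 170928464 to 170967129, plus strand), is the paralog on medial cisternae. Its values were 131, 137 and 142 CPM in siControl and 273, 250.2 and 265 CPM in siSON. The groups were far apart relative to their spread. The rise was 1.93-fold, a log2 fold change of 0.94 (SE 0.06, 95% interval 0.82 to 1.07, edgeR adjusted p 5.61e-08). No other annotated gene overlaps it.

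GM130, encoded by GOLGA2 (ENSG00000167110; chromosome 9, 128255829 to 128275995, minus strand), binds the vesicle tether p115 and GRASP65. It had 109.9, 116 and 118 CPM in siControl and 78.1, 79.7 and 68.8 CPM in siSON. The highest siSON library lay under the lowest control library. The level fell to 65.9% of control, with a log2 fold change of -0.60 (SE 0.07, 95% interval -0.75 to -0.46, edgeR adjusted p 8.23e-06). GOLGA2 has 11 named pseudogenes, whose transcripts share exact stretches of up to 67 bases with it and whose summed counts were 5.34% to 13.3% of its own. With those counts added to GOLGA2, an alternative chosen after seeing the data, the log2 fold change was -0.52 (edgeR adjusted p 2.09e-05). The pseudogenes did not move alike. GOLGA2P7 had 38, 58 and 30 counts in siControl and 181, 180 and 200 in siSON, opposite to GOLGA2. GOLGA2P10 had 367, 319 and 365 counts in siControl and 277, 336 and 254 in siSON.

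Golgin-45, encoded by BLZF1 (ENSG00000117475; chromosome 1, 169367970 to 169396540, plus strand), had 34.8, 37.1 and 39.8 CPM in siControl and 54.5, 55.9 and 56.8 CPM in siSON. The groups did not overlap. BLZF1 differed by 0.58 on the log2 scale (SE 0.07, 95% interval 0.43 to 0.73, edgeR adjusted p 1.17e-05), or 1.496-fold. Scaling by library size alone gave 0.38 (edgeR adjusted p 0.000484).

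Ratios of 2 genes within a library do not depend on a single scaling factor per library, and 4 were compared by 2-sided exact permutation tests, whose smallest possible p with 3 libraries against 3 is 0.1. All 4 exact tests gave p = 0.1 (0.1 after Benjamini-Hochberg adjustment over the 4), so none could pass 0.05, and for all 4 the groups did not overlap. GORASP1 counts were 0.307, 0.290 and 0.299 of GORASP2 counts in siControl and 0.0722, 0.0721 and 0.0665 in siSON. This log2 ratio fell from -1.74 ± 0.04 to -3.83 ± 0.07 (SD, n = 3 each), a 4.25-fold shift from the cis-side to the medial-side paralog. Within the cis pair, GOLGA2 lost less than GORASP1, and their log2 ratio went from 1.49 ± 0.05 to 2.03 ± 0.10, a difference of 0.54 (SE 0.06). Within the medial pair, BLZF1 gained less than GORASP2, and the log2 ratio went from -1.87 ± 0.03 to -2.24 ± 0.08, a difference of -0.36 (SE 0.05). Cyclic loess normalization can change a ratio, and with it (chosen after seeing the data) the differences were -1.79 for GORASP1 to GORASP2, 0.32 for GOLGA2 to GORASP1, -0.17 for BLZF1 to GORASP2 and 0.75 for GOLGA4 to GOLGA1. All 4 kept their direction, and their groups still did not overlap.

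**Figure D2:**
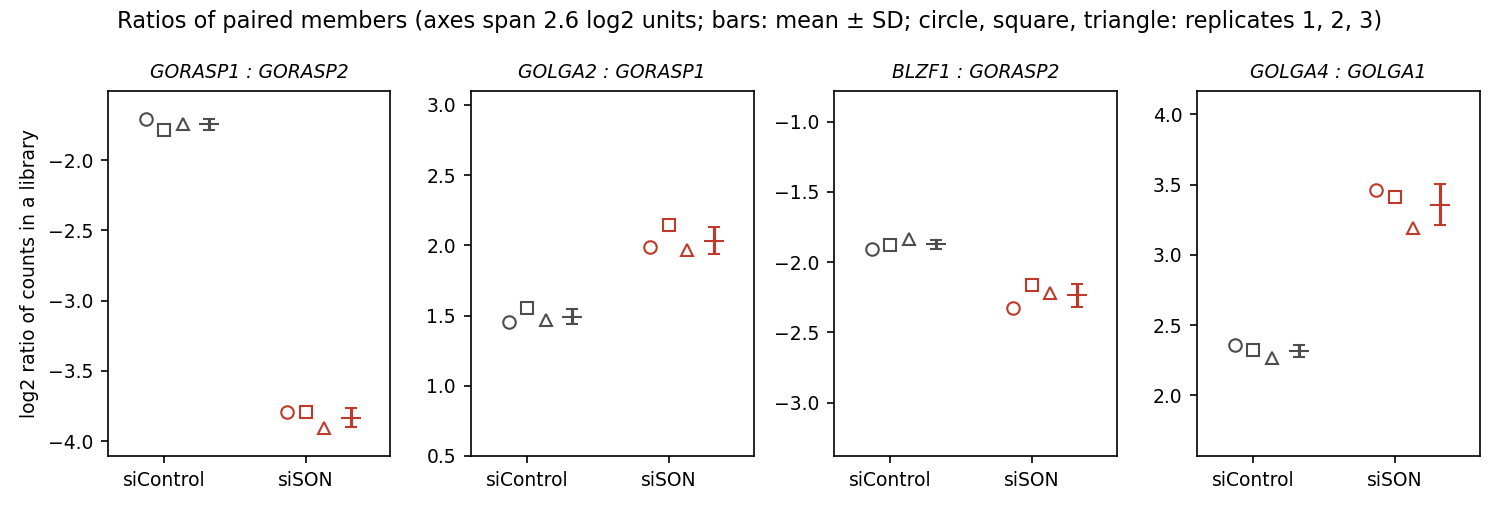
Log2 ratio of the counts of paired genes within each library (vertical axes, all spanning the same range) for siControl and siSON; symbols are replicates and bars the mean ± SD. GORASP1 to GORASP2 dropped from about -1.74 to -3.83, the widest of the 4 shifts, and GOLGA4 to GOLGA1 rose from 2.32 to 3.36.

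The trans-side golgins that carry a GRIP domain did not move alike. Golgin-245, encoded by GOLGA4 (ENSG00000144674; chromosome 3, 37243177 to 37366751, plus strand), had 156, 145 and 137 CPM in siControl and 329.8, 286 and 263 CPM in siSON. All 3 siSON libraries lay above all controls, and replicate 1 was the highest library of both groups. The log2 fold change was 1.01 (SE 0.08, 95% interval 0.83 to 1.19, edgeR adjusted p 8.16e-07), and 0.93 without siSON replicate 1. GOLGA4 shares 446 exonic bases with AC097359.2, an antisense gene with 112 to 262 counts in a library.

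Golgin-97, encoded by GOLGA1 (ENSG00000136935; chromosome 9, 124878357 to 124948492, minus strand), had 30.4, 28.9 and 28.4 CPM in siControl and 29.9, 26.9 and 28.8 CPM in siSON. The groups overlapped. The difference was -0.04 on the log2 scale (SE 0.07, edgeR adjusted p 0.66), with a 95% interval of -0.19 to 0.12, and under scaling by library size alone it was -0.23 (edgeR adjusted p 0.01). GOLGA1 shares 886 exonic bases with SCAI on the same strand, which had 253 to 650 counts. GOLGA4 counts were 5.12, 5.00 and 4.82 times GOLGA1 counts in siControl and 11.03, 10.7 and 9.12 times in siSON. The log2 ratio differed by 1.04 (SE 0.09), a 2.06-fold change, and by 0.75, a 1.68-fold change, under cyclic loess normalization.

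The membrane-anchored golgins and GOLGA3 were higher by 0.25 to 0.35 on the log2 scale with TMM factors, and GOLGA3 did not keep that sign under cyclic loess normalization. GOLGB1 (ENSG00000173230; chromosome 3, 121663199 to 121749767, minus strand), which encodes giantin, had 156, 155 and 132 CPM in siControl and 196, 189 and 178 CPM in siSON, with no overlap. This was a log2 fold change of 0.35 (SE 0.07, edgeR adjusted p 0.00105). GOLGA5 (ENSG00000066455; chromosome 14, 92794231 to 92839963, plus strand), which encodes golgin-84, had 50.1, 54.5 and 55.2 CPM in siControl and 67.8, 67.2 and 67.2 CPM in siSON. The siSON libraries were tightly grouped above the controls, with a log2 fold change of 0.34 (SE 0.06, edgeR adjusted p 0.000326).

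GOLGA3 (ENSG00000090615; chromosome 12, 132768909 to 132828858, minus strand), which encodes golgin-160, had 249.7, 245 and 250.3 CPM in siControl and 281, 298 and 306 CPM in siSON. GOLGA3 differed by 0.25 on the log2 scale (SE 0.05, edgeR adjusted p 0.000844), and by -0.10 under cyclic loess normalization (limma adjusted p 0.0824), so its sign depended on the scaling. These 3 calls were small and were each lost when library size alone was used, with log2 fold changes of 0.15 for GOLGB1 (edgeR adjusted p 0.0829), 0.14 for GOLGA5 (edgeR adjusted p 0.0581) and 0.05 for GOLGA3 (edgeR adjusted p 0.38). GOLGA3 shares 125 exonic bases with CHFR on the same strand.

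TRIP11 (ENSG00000100815; chromosome 14, 91965991 to 92040896, minus strand) encodes GMAP-210, which also holds the intraflagellar transport protein IFT20 at the Golgi. It had 65.3, 73.7 and 70.5 CPM in siControl and 68.4, 78.4 and 76.0 CPM in siSON. The groups overlapped, and replicate 1 was the lowest library of both. The log2 fold change was 0.09 (SE 0.07, 95% interval -0.06 to 0.24, edgeR adjusted p 0.273). Without siSON replicate 1 it was 0.16 (edgeR adjusted p 0.0415), a fit that keeps siControl replicate 1. With the replicate number as a block it was 0.088 (edgeR adjusted p 0.113). It was -0.11 under cyclic loess normalization as well as with library size alone.

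**Figure D3:**
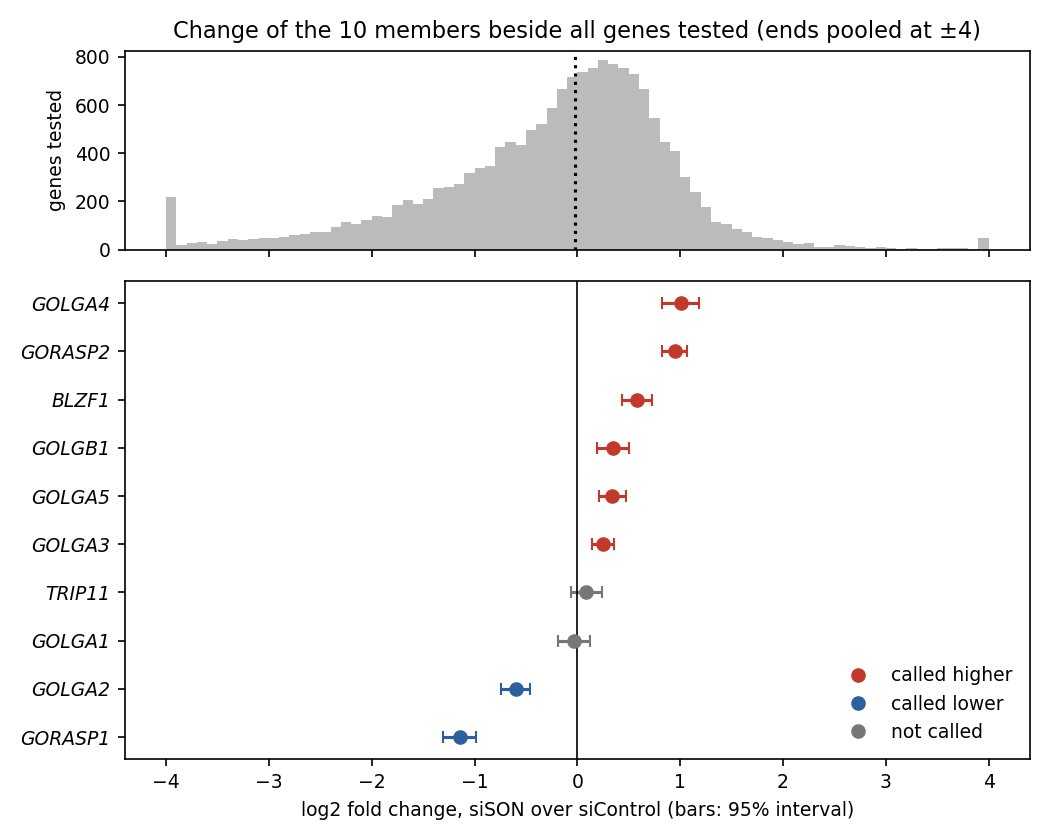
Lower panel: log2 fold change of each gene, siSON over siControl (horizontal axis), with its 95% interval; colours give the call. Upper panel: the same quantity for the 16591 genes tested, with their median as a dotted line. The 10 genes run from -1.14 for GORASP1 to 1.01 for GOLGA4.

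Levels of different genes were compared per kilobase of merged exons. In siControl, GORASP2 was highest at 25.6 ± 1.09 CPM per kilobase (SD, n = 3), above GOLGA3 at 23.5 ± 0.28. GOLGA2 and GOLGA5 followed at 16.5 ± 0.60 and 16.2 ± 0.84, which overlapped, and then GOLGA4 and GOLGB1 at 13.6 ± 0.89 and 12.4 ± 1.17, which also overlapped. BLZF1 had 9.75 ± 0.65 CPM per kilobase, TRIP11 and GORASP1 had 6.73 ± 0.41 and 6.51 ± 0.25 and overlapped, and GOLGA1 was lowest at 4.86 ± 0.18.

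In siSON the order changed in the middle and at the bottom. GORASP2, still first, reached 49.2 ± 2.16 CPM per kilobase, GOLGA4 drew level with GOLGA3 (27.3 ± 3.17 and 27.95 ± 1.20, overlapping), GOLGA2 dropped from the third to the seventh place at 10.8 ± 0.84, and GORASP1 became the lowest at 2.95 ± 0.18. As a share of the per-kilobase sum of the 10 genes, which a single factor per library leaves unchanged, GORASP1 went from 4.80% ± 0.17 to 1.63% ± 0.06 and GOLGA2 from 12.1% ± 0.30 to 5.995% ± 0.42. The share of GORASP2 went from 18.8% ± 0.61 to 27.2% ± 0.89 and that of GOLGA4 from 10.02% ± 0.78 to 15.1% ± 1.40 (SD, n = 3 each). With the length of the longest coding transcript in place of merged exons, GORASP2 stayed first in both groups and GORASP1 was last in siSON. GOLGA2 then stood second in siControl, level with GOLGA3 (means of 26.9 and 26.84 CPM per kilobase), and sixth in siSON. By that length GOLGA4 lay above GOLGA3 in siSON, with means of 38.2 and 31.9 CPM per kilobase, so their order depended on the length used.

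The call held under all alternatives but the test against a 1.5-fold change for 5 of the 8 called genes: GORASP1, GOLGA2, GORASP2, BLZF1 and GOLGA4. Over 14 alternatives, log2 fold changes ran from -1.34 to -1.10 for GORASP1, from 0.63 to 0.99 for GORASP2, from 0.38 to 0.62 for BLZF1 and from 0.68 to 1.09 for GOLGA4. GOLGA2 ran from -0.83 to -0.52 over 15. When tested against a change of 1.5-fold, 3 genes were called, GORASP1 lower and GORASP2 and GOLGA4 higher, beside 36.9% of all genes tested.

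**Figure D4:**
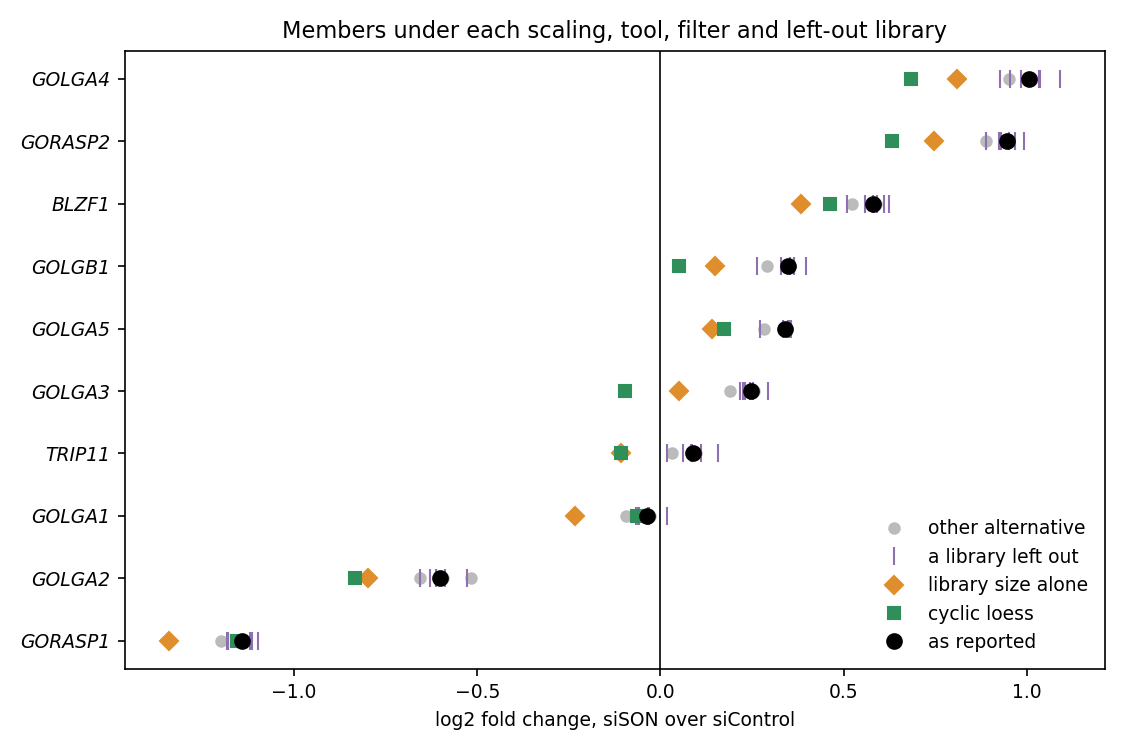
Log2 fold change of each gene (horizontal axis) as reported and under each other scaling, tool, filter, block or left-out library; the vertical line marks 0. GORASP1 and GOLGA2 stay left of 0 and GORASP2, BLZF1 and GOLGA4 right of it, while GOLGA1, GOLGA3 and TRIP11 have values on both sides.

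Gene structure was read from GENCODE release 29, using the transcript with the longest coding sequence. The 2 genes that fell had the shortest median introns of the 10, 259 bases in GOLGA2 and 525 in GORASP1 (percentiles 8.2 and 17.4 of the 13015 tested genes with a coding transcript), and the highest GC contents, 54.8% and 56.3%. The other 8 had median introns of 1087.5 bases (GOLGA1) to 3318.5 bases (GOLGA4). BLZF1 and TRIP11 had the lowest GC contents, 37.6% and 37.4% (percentiles 5.3 and 4.8), and GOLGA4 had 39.2%. Among all tested genes the median intron was 1283 bases in those called lower and 2174 in those called higher, and the GC content 53.8% and 47.6%. In genes not called these medians were 2188 bases and 47.5%. GOLGA3, with 54.0% GC and a median intron of 1925 bases, was called higher. GOLGA1, with 48.2% GC and a median intron of 1087.5 bases, was not called. The part of gene structure in these differences was not tested.

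**Figure D5:**
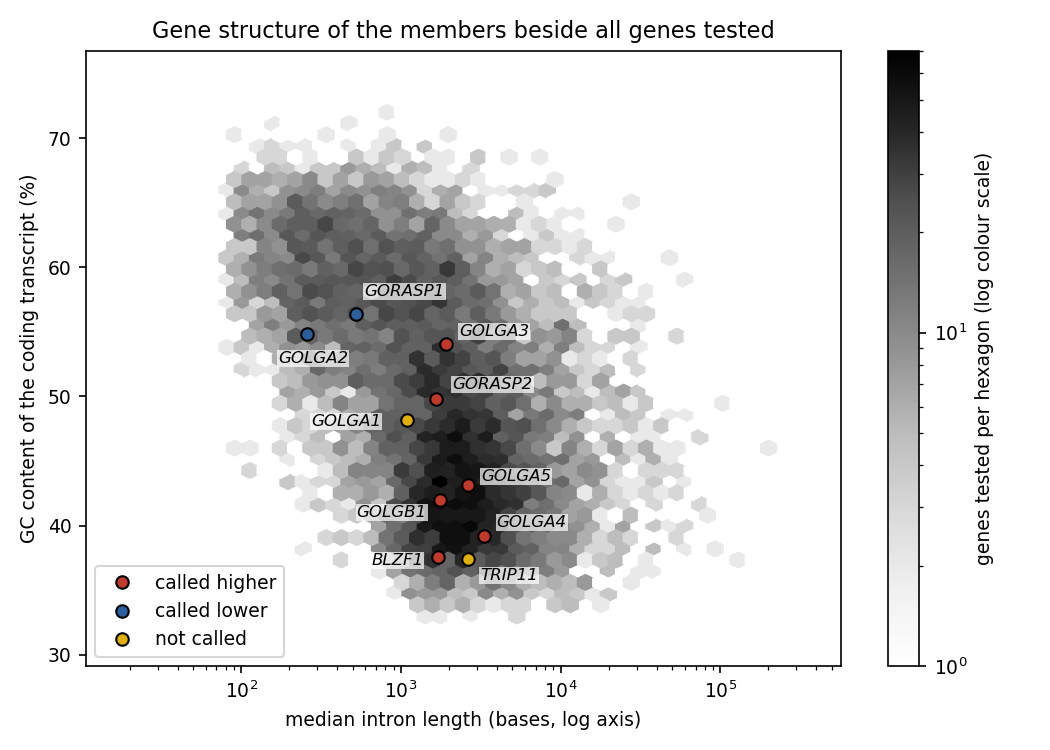
Median intron length in bases (horizontal, log axis) against GC content of the coding transcript in percent (vertical); hexagons count tested genes and the 10 labelled points are coloured by call. GOLGA2 and GORASP1 sit at the short-intron, GC-richer end, with medians of 259 and 525 bases.

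Several of these genes code for long proteins: GOLGB1 has 3269 codons, GOLGA4 2243 and TRIP11 1979, whereas GORASP1, GORASP2 and BLZF1 have 440, 452 and 400. Exon number did not separate the directions, since GOLGA2 has 26 exons and GORASP1 has 9, and GOLGA4 has 23 and GORASP2 has 10. Some of the genes are neighbours. GOLGA4 and GORASP1, which moved in opposite directions, lie 1.73 Mb apart on chromosome 3 with 16 protein-coding genes between them. TRIP11 and GOLGA5 lie 0.753 Mb apart on chromosome 14, and GOLGA1 and GOLGA2 3.31 Mb apart on chromosome 9.

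Part of the Golgi stress response acts through a promoter element named GASE, ACGTGGC, which the factor TFE3 can bind. These letters were searched on both strands in the 250 bases before the RefSeq start (GRCh38.p14) of 9 of the genes; GOLGA4 had no entry. They occurred in 3 of the 9, beside 3.82% of 10866 promoters of tested genes and 2.85% of 27305 promoters in all. Not every window lay upstream of the GENCODE gene. The gene's own annotated exons covered all 250 bases in GORASP1 and GORASP2, 225 in BLZF1 and 74 in GOLGA5. The GOLGA1 and TRIP11 windows lay within the GENCODE spans of these genes. The matches are shown in capitals on the strand of the gene, with 10 bases on either side where the window allows, because they are the feature shared by some of these genes that has a known link to the Golgi.
GOLGA1: ccgctcgctgACGTGGCgaactgggct
GOLGA5: ccggcggcgaGCCACGTcacacgcacg
GORASP2: ggcagcgagtGCCACGTccc
The match began 181 bases before the RefSeq start in GOLGA1 (chr9:124941248-124941274, minus strand), where it reads along the gene. The GENCODE span of GOLGA1 given above begins further upstream, so this match lies inside that span, outside its annotated exons. It began 180 bases before the start in GOLGA5 (chr14:92794115-92794141, plus strand) and 10 bases before it in GORASP2 (chr2:170929233-170929252, plus strand, inside an annotated GORASP2 exon), on the opposite strand in both. GORASP2 and GOLGA5 were called higher and GOLGA1 was not called; GOLGA2, GOLGA3, GOLGB1, GORASP1, TRIP11 and BLZF1 had no match. Other motifs were searched in the same windows. The GC box GGGCGG was found in 5 of the 9, GOLGA2, GOLGA3, GOLGA5, GORASP1 and GORASP2, beside 65.8% of the promoters of tested genes. The CCAAT box was found in 2, GOLGA2 and GOLGB1, beside 35.0%. The element CRE, TGACGTCA, was found in 0 of the 9, beside 2.87%. A match is a sequence description, and binding was not measured.

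The lists of related genes are read beside the 71.7% of all tested genes that were called, with 35.2% of all tested genes higher and 36.5% lower. With library size alone, 4441 of all tested genes were called higher and 7351 lower, and their median log2 fold change was -0.22. Under cyclic loess normalization, 6044 were called higher and 5640 lower, and the median was 0.04. Of 13 other golgins and golgin-like tethers tested, 10 were called, 8 higher and 2 lower, with a median log2 fold change of 0.21 beside -0.03 for all genes. With library size alone the split was 5 higher and 3 lower and the median 0.02, beside -0.22 for all genes. USO1, which encodes p115, the tether that GM130 and giantin bind, had 182 ± 14.3 CPM in siControl and 273 ± 6.42 CPM in siSON (SD, n = 3; log2 fold change 0.58, edgeR adjusted p 5.82e-06; 0.39 by library size and 0.26 under cyclic loess normalization, limma adjusted p 0.00264). CUX1, whose locus also encodes the golgin CASP, rose from 95.8 ± 6.47 to 149.6 ± 6.79 CPM (log2 fold change 0.64, edgeR adjusted p 3.36e-06; 0.38 under cyclic loess normalization), and the gene count does not separate the golgin from the transcription factor. GOLGA7, which encodes a partner of a palmitoyltransferase, fell from 51.0 ± 1.83 to 15.2 ± 0.43 CPM (log2 fold change -1.75, edgeR adjusted p 3.98e-09). GOLGA8B, which belongs to a family of closely similar copies and is therefore uncertain, had a log2 fold change of -0.60 (edgeR adjusted p 0.0169). That call was lost under cyclic loess normalization (-0.30, limma adjusted p 0.19) and without siSON replicate 3 (-0.39, edgeR adjusted p 0.0536).

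Small GTPases that recruit golgins, with their activators, gave 20 calls among 22 genes tested, 15 higher and 5 lower, with a median log2 fold change of 0.48. Cyclic loess normalization gave 13 higher and 7 lower and a median of 0.17, beside 0.04 for all genes. RAB6B, with at most 1 count in a library, was not tested. RAB1A, which binds GM130 and p115, went from 91.5 ± 5.46 to 278 ± 8.78 CPM. ARL1, the GTPase that recruits the GRIP golgins GOLGA1 and GOLGA4, had 100.6 ± 2.09 CPM in siControl and 179 ± 1.47 CPM in siSON (SD, n = 3; log2 fold change 0.83, edgeR adjusted p 5.24e-08). ARFRP1, which acts upstream of ARL1 on the trans-Golgi, fell from 31.9 ± 1.26 to 3.90 ± 0.90 CPM (log2 fold change -3.03, SE 0.14, edgeR adjusted p 1.12e-08).

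Partners that tie golgins to Golgi microtubules or cilia gave 7 calls among 10 genes, 6 higher and 1 lower (median log2 fold change 0.27). The split was 4 and 3 with library size alone and likewise under cyclic loess normalization. The medians were then 0.07 and 0.04, beside -0.22 and 0.04 for all genes. PDE4DIP, which encodes myomegalin, rose from 53.2 ± 0.16 to 103.2 ± 3.27 CPM (log2 fold change 0.96, edgeR adjusted p 3.98e-08). TPX2, a spindle assembly factor whose importin is captured by GM130 in mitosis, rose from 202 ± 3.49 to 290.4 ± 30.7 CPM (log2 fold change 0.52, edgeR adjusted p 4.54e-05; 0.33 by library size and 0.18 under cyclic loess normalization, limma adjusted p 0.0333). CLASP2, which stabilises microtubules that grow from the Golgi, fell from 53.4 ± 2.61 to 30.6 ± 1.92 CPM (log2 fold change -0.80, edgeR adjusted p 1.31e-06).

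The conserved oligomeric Golgi complex, a tether that binds several golgins, had all 8 subunit genes called, 7 higher and 1 lower, with a median log2 fold change of 0.63; 7 were called, 6 of them higher, by either of the other scalings named above. COG7 went from 19.9 ± 0.64 to 45.8 ± 2.73 CPM (log2 fold change 1.20, edgeR adjusted p 6.14e-08) and COG2 from 16.4 ± 0.31 to 33.6 ± 2.21 CPM (1.04, edgeR adjusted p 2.81e-07). COG1 fell from 34.4 ± 2.44 to 25.2 ± 2.96 CPM (log2 fold change -0.45, edgeR adjusted p 0.00115).

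Resident Golgi membrane proteins gave 24 calls among 26 genes, 17 higher and 7 lower (median log2 fold change 0.33). Scaling by library size alone made the split 12 and 9 with a median of 0.13, beside -0.22 for all genes. Cyclic loess normalization made it 13 and 9 with a median of 0.09, beside 0.04 for all genes. The glycosyltransferases GALNT1 and GALNT2, which start mucin-type O-glycosylation, rose from 84.1 ± 6.83 to 277 ± 19.3 CPM and from 310.2 ± 12.2 to 575 ± 9.27 CPM (edgeR adjusted p 7.02e-09 and 3.18e-08), and the log2 fold change of GALNT2 was 0.89, or 0.51 under cyclic loess normalization. YIPF2, a multispanning membrane protein, fell from 46.4 ± 0.18 to 12.98 ± 1.75 CPM (log2 fold change -1.84, edgeR adjusted p 2.41e-08), and the SNARE gene BET1L fell from 39.8 ± 1.36 to 23.1 ± 0.74 CPM (log2 fold change -0.79, edgeR adjusted p 9.89e-07). None of these lists is set apart from other genes by a test, and each is described by its counts alone.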

How the data were processed

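The table the authors deposited holds raw read counts for each gene, 1 column per library. The submitters' processing notes name cutadapt 1.16, STAR 2.5.2a, featureCounts 1.6.2, DESeq2 1.28.1 and build hg38; strandedness, annotation release and handling of multi-mapping reads are not given in the sources used here. All 58735 identifiers matched GENCODE release 29, which supplied positions and structure.

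The fit used edgeR 4.0.16 in R 4.3.3: filterByExpr (minimum count 10), TMM factors, and a robust quasi-likelihood fit with group as the predictor, with Benjamini-Hochberg adjustment over all genes tested and calls at an adjusted p under 0.05. CPM used TMM-scaled library sizes. The SE of a log2 fold change was derived from its quasi-likelihood F. Ratios used a prior count of 0.5. Alternatives used DESeq2 1.42.0, limma 3.58.1 (voom and cyclic loess), other scalings and filters, a replicate block, left-out libraries and a test against a 1.5-fold change. Genes named outside the 10 are SON and, in each list, the 2 called genes of lowest adjusted p in each direction. A gene selected by this rule is not reported here. The members and lists were chosen with earlier results of these data known. Gene counts do not show splicing, which was not analysed here.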

Additional observations from a re-analysis of the deposited data

How the results depend on the processing

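Of the 10 genes, 5 changed verdict or direction under at least 1 of the 14 alternatives other than the test against a 1.5-fold change. TRIP11 was -0.11 (log2) with library size alone and -0.11 under cyclic loess normalization, GOLGA3 was -0.10 under cyclic loess normalization, and GOLGA1 ranged from -0.067 to 0.017 with 1 library left out, the upper value without siSON replicate 2. GOLGB1 was 0.05 under cyclic loess normalization (limma adjusted p 0.551). Tested against a 1.5-fold change, 6126 genes were called, 36.9% of those tested, and 3 of the 10 golgin and stacking genes. In the lists, the calls were 1 of 13 other golgins and golgin-like tethers (GOLGA7, lower) and 9 of 22 GTPases and activators. They were 2 of 10 microtubule and cilium partners, 2 of 8 subunits of the oligomeric complex and 8 of 26 resident membrane proteins. This test asks for a larger change and so makes fewer calls. Higher genes made up 49.1% of all calls as reported and 37.7% with library size alone. The replicate numbers were not taken to pair the libraries in the main fit. Deviations of same-numbered libraries correlated at 0.194, 0.0461 and 0.118, and those of differently numbered libraries at -0.138 to 0.0286. In both groups, replicates 2 and 3 were the closest pair (chi-square per degree of freedom 7.16 and 7.18). Whether the number marks a shared batch, which the main fit leaves out, was not tested. With the number as a block, 12313 genes and 8 of the 10 were called, 6 higher and 2 lower; a block cannot move the difference of a log2 ratio in this balanced design (-2.09 for GORASP1 to GORASP2 in both). Of 266 comparisons of the 19 other genes the naming rule selects with an alternative, 264 kept their verdict; both exceptions were GOLGA8B. Depth did not limit the 10 genes, whose lowest count was 895.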
